A study of Homo sapiens with 4 samples.

Results

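The fetal globin and fetal program regulators BCL11A, ZBTB7A, SOX6, LIN28B, IGF2BP1, IGF2BP2, IGF2BP3 and HMGA2 were examined after knockdown of LDB1 in cells labelled NB4. Members were taken as the rows of the deposited expression table whose gene name is one of these 8 symbols. Of the 8 listed genes, 7 had a row among the 28412 genes of the table, and HMGA2 was not analysed here. Of these 7, 5 passed the filter on low values (1 FPKM or more as the mean of all libraries, where FPKM is fragments per kilobase of gene, here scaled between libraries by median of ratios), whereas BCL11A and SOX6 did not.

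RNA-seq was performed on 4 libraries of total RNA, 2 with the control vector sh-NC and 2 with an shRNA vector against LDB1, sh-LDB1. NB4 is an established human line derived from acute promyelocytic leukemia, and no further genetic change or treatment is given for either group. According to the study's methods, lentiviral vectors carried the shRNAs and infected cells were selected with puromycin, although the source field of the control libraries reads as untreated. The labels do not say which of the designed LDB1 shRNAs was sequenced, or whether the replicates came from separate cultures, so the p-values measure the spread between these libraries only.

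In human development, hemoglobin passes from embryonic to fetal and then to adult chains, and the switch from the gamma globins HBG1 and HBG2 to the adult globin HBB depends on repressors such as BCL11A, ZBTB7A and SOX6. On the fetal side, LIN28B binds precursors of the let-7 microRNAs and blocks their maturation, and let-7 in turn represses LIN28B, the IGF2BP RNA-binding proteins and HMGA2. LDB1 is the adaptor that joins LMO2, TAL1 and GATA1 on DNA in erythroid cells and links the globin locus control region to the globin promoters.

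The let-7 family reads its targets through bases 2 to 8 of the mature microRNA, which are the same in 9 human members of the family. These microRNAs were not measured in the libraries, and 3 of them are shown because LIN28B and all 3 IGF2BP genes hold the matching site. The seed is in capitals, and the sequences are from RefSeq (GRCh38.p14).
hsa-let-7a-5p: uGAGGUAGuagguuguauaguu
hsa-let-7b-5p: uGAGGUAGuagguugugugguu
hsa-let-7g-5p: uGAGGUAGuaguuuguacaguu

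The matching 7 bases (CTACCTC, read on the transcript strand) were searched in the 3' untranslated region of the canonical GENCODE 44 transcript of each member. LIN28B, IGF2BP1 and HMGA2 held 4 matches each, and IGF2BP2 and IGF2BP3 held 1 each. No match was found in BCL11A, ZBTB7A or SOX6. For comparison, 10.3% of the 15396 genes of the table with such a region held at least 1 match, and these regions had a median length of 1172 bases against 4549 in LIN28B and 6701 in IGF2BP1. The matches followed by an A, the form bound best by a microRNA, are shown on GRCh38 for the 4 members that have a value, with the match in capitals.
LIN28B site at chr6:105078813-105078834, plus strand: cccggttgcaaagtCTACCTCa
LIN28B site at chr6:105081422-105081443, plus strand: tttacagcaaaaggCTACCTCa
IGF2BP1 site at chr17:49051062-49051083, plus strand: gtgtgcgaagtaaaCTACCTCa
IGF2BP1 site at chr17:49053699-49053720, plus strand: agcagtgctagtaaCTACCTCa
IGF2BP1 site at chr17:49054353-49054374, plus strand: tataaatggattaaCTACCTCa
IGF2BP2 site at chr3:185644220-185644241, minus strand: acacacagaagaagCTACCTCa
IGF2BP3 site at chr7:23311795-23311816, minus strand: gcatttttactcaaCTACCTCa

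The 250 bases before the start of the canonical transcript are shown for the 3 members that were lower after LDB1 knockdown. This is because LDB1 complexes are known to bind DNA through GATA1 and TAL1, which read GATA motifs and some E-boxes. Capitals mark matches on either strand to the GATA motif AGATAA, to its variant TGATAA, and to E-boxes spelled CACGTG, to those with the letters CAGCTG and to those with CAGATG. No match of different motifs overlapped in the windows shown. The sequences are from RefSeq (GRCh38.p14), 5' to 3' on the strand of the gene.
LIN28B, chr6:104956857-104957106, plus strand: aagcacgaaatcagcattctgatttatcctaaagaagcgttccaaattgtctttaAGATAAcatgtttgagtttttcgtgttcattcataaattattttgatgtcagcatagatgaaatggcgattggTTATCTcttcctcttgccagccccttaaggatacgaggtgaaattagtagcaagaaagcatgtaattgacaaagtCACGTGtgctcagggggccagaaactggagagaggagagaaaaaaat
IGF2BP3, chr7:23470492-23470741, minus strand: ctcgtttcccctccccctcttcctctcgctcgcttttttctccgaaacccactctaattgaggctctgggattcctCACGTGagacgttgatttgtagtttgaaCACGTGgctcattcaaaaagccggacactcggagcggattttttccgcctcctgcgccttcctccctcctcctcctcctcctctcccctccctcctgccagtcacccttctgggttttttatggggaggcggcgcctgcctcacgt
IGF2BP2, chr3:185825043-185825292, minus strand: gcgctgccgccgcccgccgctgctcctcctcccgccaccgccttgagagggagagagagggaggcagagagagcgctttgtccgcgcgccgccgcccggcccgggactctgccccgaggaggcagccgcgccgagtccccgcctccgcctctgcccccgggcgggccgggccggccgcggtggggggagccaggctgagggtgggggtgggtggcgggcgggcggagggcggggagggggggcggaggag

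The LIN28B window held 2 matches to AGATAA, one on each strand, and 1 to CACGTG. Another promoter window of LIN28B, 16142 bases from the canonical start, held none of the 5 motifs. IGF2BP3 held 2 matches to CACGTG, and IGF2BP2 held none of the 5 motifs. No window shown held CAGCTG or CAGATG, and the CACGTG matches are not taken as TAL1 sites. Among 35116 promoter windows of 300 bases, the share with a match was 10.3% for AGATAA, 7.53% for TGATAA, 7.26% for CACGTG, 17.9% for CAGCTG and 14.7% for CAGATG. The windows printed were picked by direction of change, and 6 members had promoter windows. SOX6, which did not pass when low genes were kept in the test, held 1 match to the last E-box listed in its canonical window. Its other windows held matches to both GATA motifs and to the same E-box. No window of ZBTB7A, which rose, or of BCL11A held any of the 5 motifs. Matches were thus not limited to the members that fell. They describe the letters of the windows and do not show binding.

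LDB1 itself was checked before the members. The controls, as the sh-NC libraries are called here, held 135 and 120.1 FPKM, and knockdown left 10.2 and 9.47 FPKM, a remainder of 7.73% (log2 fold change -3.56, SE 0.0766, limma adjusted p = 6.9e-05). Across genes, which are not independent replicates, the correlation within a group was 0.985 for the controls and 0.984 for sh-LDB1, and between groups it was 0.856 to 0.863. The scaling totals, read back from the smallest steps of the table, were 14746656 to 16182674 fragments per library, and the recovered reads, which rest on gene lengths fitted from GENCODE 44, summed to between 15130788 and 17704705. The count of genes at 1 FPKM or more was 12910 and 12948 for the controls, and 13394 and 13443 with sh-LDB1.

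The cell label was compared with marker genes. Of 12 promyelocyte and granulocyte markers, 10 had a row. ELANE (neutrophil elastase) was listed at 0 in 3 of the 4 libraries, CEBPA lay between 0.206 and 0.427 FPKM, and MPO and CTSG were not analysed here. The most abundant gene of this list was SPI1, the myeloid factor PU.1, at 10.5 and 10.7 FPKM in the controls and 34.3 and 35.3 FPKM with sh-LDB1. LYZ, CSF3R, PRTN3 and AZU1 lay at 5.61 to 5.85, 1.08 to 1.1, 1.18 to 1.29 and 1.67 to 1.94 FPKM in the controls. In the same order, they lay at 19.1 to 19.3, 8.49 to 9.46, 4.5 to 5.5 and 3.93 to 4.83 FPKM with sh-LDB1. CD33 and CEBPE did not pass the test described below. The summed level of the list was 22.7 to 23.5 FPKM in the controls and 73.5 to 76.2 FPKM with sh-LDB1. Of the 7 genes tested 5 rose, where 29.9% of all genes tested did. By contrast, 16 erythroid markers summed to 4317 and 4507 FPKM in the controls and to 451 and 414 FPKM with sh-LDB1. All 15 tested fell, where 37.4% of all genes tested did. HBZ (zeta globin) was the most abundant erythroid marker, and AHSP was at 0 in 1 sh-LDB1 library. The marker levels therefore did not match a promyelocytic line, and the cells are called here by their label only.

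These marker lists moved with the groups in which the members were compared, and their part in the members' differences was not tested. In bulk RNA, fewer cells of a type and less RNA per cell cannot be told apart. Of 7 B cell markers, relevant because BCL11A is also a B cell factor, 5 had a row, of which 1 was tested and did not pass. PAX5 was at 0 in 3 libraries and EBF1 in both sh-NC libraries, and CD79A was at 0.0411 and 0.0451 FPKM in the controls and 0.457 and 0.176 FPKM with sh-LDB1. Of 7 megakaryocyte markers, 6 had a row, and 1 of the 3 tested rose. Their sum was 4.01 to 4.03 FPKM in the controls and 5.61 to 6.0 FPKM with sh-LDB1, with ITGA2B the most abundant and PF4 at 0 in 3 libraries.

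To compare the members between the groups, limma was applied to log2(FPKM + 1) of 13300 genes. Results showed that 4 of the 5 tested members passed an adjusted p of 0.05: IGF2BP3, IGF2BP2 and LIN28B were lower and ZBTB7A was higher in sh-LDB1. Among all genes tested, 67.4% passed this threshold (29.9% higher and 37.4% lower), so the count of members is close to the background. IGF2BP2 and IGF2BP3 were also more than 2-fold lower, where 10.3% of all genes tested were. No member was more than 2-fold higher, where 9.5% of all genes tested were. The median log2 fold change of the 5 members was -0.67, beside -0.08 over all genes tested. Levels of all 5 tested members did not overlap between the groups, which held for 84.6% of genes tested.

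**Figure D1:**
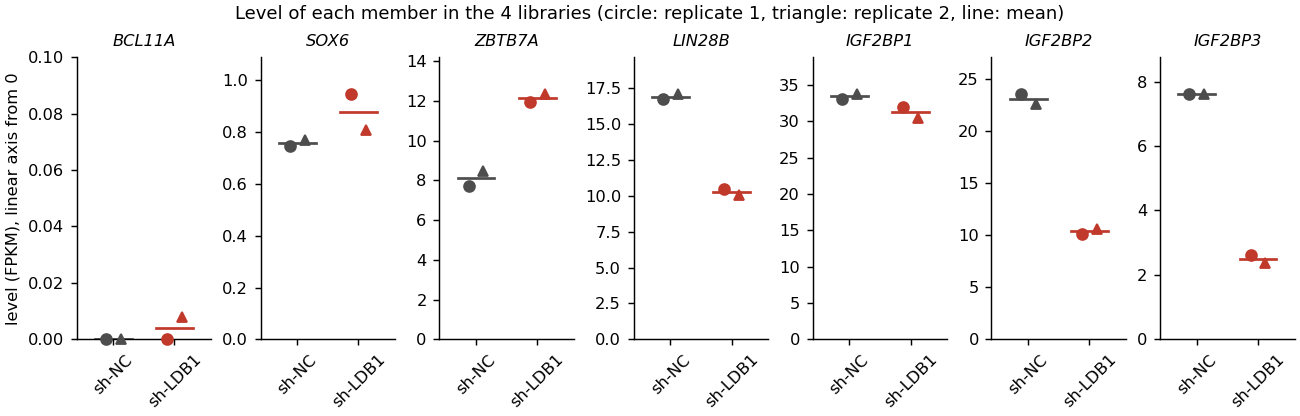
Level of 7 members in FPKM (linear axes from 0, each with its own range), in sh-NC (grey) and sh-LDB1 (red); circles are replicate 1, triangles replicate 2 and lines the mean of 2 libraries. IGF2BP2, IGF2BP3 and LIN28B are lower and ZBTB7A is higher in sh-LDB1, IGF2BP1 stays between 30.5 and 33.8 FPKM, and BCL11A is at or near 0.

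Among the repressors of fetal globin, BCL11A was next to absent in both groups. BCL11A (ENSG00000119866, chr2:60450520-60554467, minus strand, GRCh38) encodes the zinc finger protein that binds the gamma globin promoters and silences them. It was listed at 0 FPKM in both sh-NC libraries and in sh-LDB1 replicate 1, and at 0.0078 FPKM in replicate 2. That value equals 1 read over a length of 8474 bases, or 3 reads over 25422 bases, where the annotated exons cover 24514 bases. With the shorter length, 3 reads would be 0.0219 to 0.024 FPKM, so the libraries listed at 0 allow a level up to about that value, for counting error only. No fold change is given for BCL11A. Its known activators KLF1 and MYB were 238 and 237 FPKM, and 24.5 and 25.3 FPKM, in the same sh-NC libraries.

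ZBTB7A was the member that rose. ZBTB7A (ENSG00000178951, chr19:4043303-4066899, minus strand), also known as LRF, is a zinc finger repressor of gamma globin that acts apart from BCL11A and is needed for erythroid maturation. Its level was 7.74 and 8.48 FPKM in the controls and 11.9 and 12.3 FPKM with sh-LDB1, which stood for 717, 716, 1093 and 1070 reads recovered from the FPKM. Both sh-LDB1 libraries lay above both controls. The mean rose from 8.11 ± 0.525 (SD, n = 2) to 12.1 ± 0.308 FPKM (SD, n = 2), 149.6% of the control (log2 fold change 0.53, SE 0.0639, limma adjusted p = 0.00218). Of all genes tested, 78.4% had a smaller log2 fold change or the same one.

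SOX6 stayed below 1 FPKM in every library. SOX6 (ENSG00000110693, chr11:15966449-16739591, minus strand) is an HMG box factor that works with BCL11A at the globin locus and promotes erythroid maturation. Its level was 0.746 and 0.77 FPKM in the controls and 0.947 and 0.808 FPKM with sh-LDB1. The groups did not overlap, but the sh-LDB1 replicates lay further apart from each other than the nearest libraries of the different groups. When genes of low level were kept in the test, the log2 fold change was 0.09 (95% interval -0.24 to 0.43, limma adjusted p = 0.592), where 34.4% of 28412 genes passed. The depth behind SOX6 was 223 to 298 recovered reads per library.

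On the fetal side, LIN28B fell to 60.7% of its control level. LIN28B (ENSG00000187772, chr6:104936616-105083332, plus strand) encodes the RNA-binding protein that blocks let-7 maturation and is known for fetal-type blood formation. The values were 16.7 and 17.1 FPKM in the controls and 10.5 and 10.01 FPKM with sh-LDB1, or 1623, 1511, 1008 and 909 recovered reads. Both sh-LDB1 libraries were below both controls, and the gap was larger than the spread of either pair. The mean was 16.9 ± 0.256 (SD, n = 2) in sh-NC and 10.2 ± 0.335 FPKM (SD, n = 2) in sh-LDB1, with a log2 fold change of -0.67 (SE 0.0502, limma adjusted p = 0.00053).

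Its paralog LIN28A, which blocks let-7 in the same way and is best known from pluripotent cells, was more abundant than LIN28B in all 4 libraries. LIN28A was 53.5 and 48.3 FPKM in the controls and 22.9 and 24.4 FPKM with sh-LDB1 (log2 fold change -1.07, SE 0.0685, limma adjusted p = 0.000351). Of the summed LIN28A and LIN28B level, LIN28B made up 24.9% ± 1.66 (SD, n = 2) in the controls and 30.2% ± 1.58 (SD, n = 2) with sh-LDB1. The sum fell from 67.8 ± 3.47 to 33.9 ± 0.665 FPKM (SD, n = 2 each). The ratio of LIN28B to LIN28A was 0.312 and 0.353 in the controls against 0.457 and 0.411 with sh-LDB1, without overlap, and a permutation test of 2 against 2 libraries cannot give a p below 0.333. Among single genes tested, 84.6% did not overlap, and the share among ratios was not computed.

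The 3 IGF2BP paralogs, RNA-binding proteins that stabilize bound transcripts and are abundant in fetal tissue, differed in size of change. IGF2BP3 (ENSG00000136231, chr7:23310209-23470491, minus strand), an oncofetal protein, fell most of all members. It was 7.62 and 7.60 FPKM in the controls and 2.61 and 2.37 FPKM with sh-LDB1, or 1049, 954, 356 and 305 recovered reads. The mean fell from 7.61 ± 0.0108 to 2.49 ± 0.172 FPKM (SD, n = 2 each), 32.7% of control (log2 fold change -1.30, SE 0.0694, limma adjusted p = 0.000224). Only 5.42% of genes tested had a log2 fold change as low.

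IGF2BP2 (ENSG00000073792, chr3:185643130-185825042, minus strand), known also for its link to metabolism and as a let-7 target, fell to 45% of control. The libraries stood at 23.6 and 22.6 FPKM in the controls and at 10.1 and 10.7 FPKM with sh-LDB1, or 1807, 1581, 769 and 763 recovered reads. The log2 fold change was -1.08 (SE 0.0521, 95% interval -1.22 to -0.94, limma adjusted p = 0.000182). This interval includes the 2-fold threshold, and the value was -0.92 after scaling to equal summed FPKM and -0.99 with median-of-ratios scaling over expressed genes. The interval of IGF2BP3, -1.49 to -1.12, overlapped that of IGF2BP2. An antisense transcript within the gene, IGF2BP2-AS1, was at 0.0993 to 0.136 FPKM. Whether its exons overlap those of IGF2BP2 was not checked, and without stated strand any shared reads cannot be told apart.

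IGF2BP1 (ENSG00000159217, chr17:48997385-49056145, plus strand), which is silent in most adult tissue and raises fetal hemoglobin when expressed in adult erythroblasts, did not pass the test. It was 33.1 and 33.8 FPKM in the controls and 32.0 and 30.5 FPKM with sh-LDB1, 93.4% of control, with 4199 to 4875 recovered reads per library. The log2 fold change was -0.10 (95% interval -0.22 to 0.03, limma adjusted p = 0.133). Its sign turned under other scalings, to 0.072 with equal summed FPKM, 0.0019 with median-of-ratios scaling over expressed genes and 0.037 with limma voom on recovered reads. The interval did not overlap that of IGF2BP2 or IGF2BP3.

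**Figure D2:**
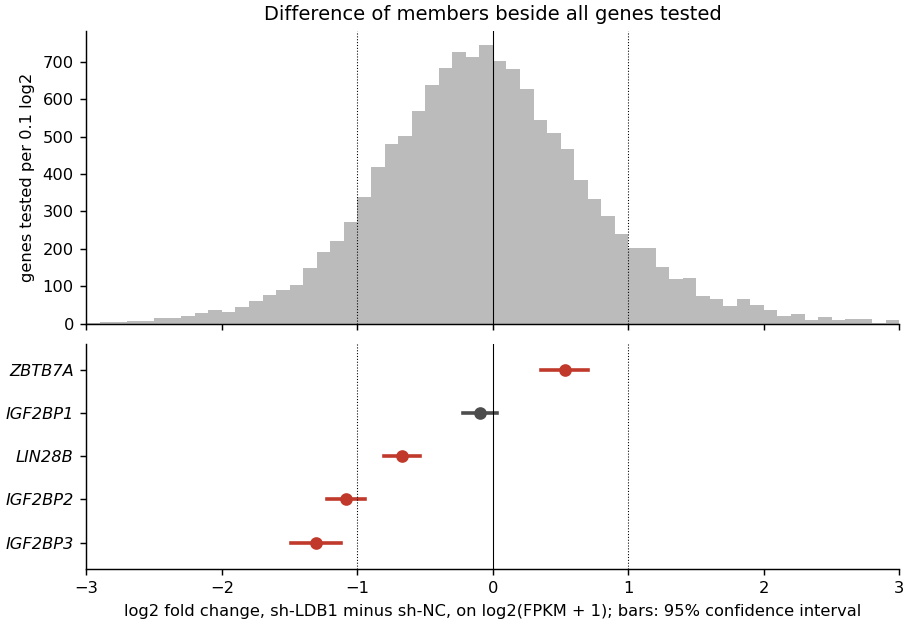
The upper panel counts the 13300 genes tested in bins of 0.1 of the log2 fold change (sh-LDB1 minus sh-NC, on log2(FPKM + 1)), drawn from -3 to 3; the lower panel gives the 5 tested members with 95% confidence intervals, in red where the adjusted p was below 0.05. IGF2BP3 at -1.30 and IGF2BP2 at -1.08 lie in the lower tail, LIN28B at -0.67 and ZBTB7A at 0.53 lie within the bulk, and the interval of IGF2BP1 spans 0.

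The makeup of the IGF2BP family also differed between the groups. IGF2BP1 took 52.1% ± 0.919 (SD, n = 2) of the summed IGF2BP level in sh-NC and 70.8% ± 1.03 (SD, n = 2) in sh-LDB1. The share of IGF2BP2 was 36.0% ± 0.941 and 23.6% ± 1.29, and that of IGF2BP3 was 11.9% ± 0.0141 and 5.64% ± 0.274, in the same order. The summed level was 64.2 ± 0.170 FPKM in the controls and 44.1 ± 0.891 FPKM with sh-LDB1 (SD, n = 2 each). Within a library, the ratio of IGF2BP3 to IGF2BP1 was 0.230 and 0.225 in the controls against 0.0816 and 0.0777 with sh-LDB1. The ratio of IGF2BP2 to IGF2BP1 was 0.713 and 0.670 in the controls against 0.317 and 0.350 with sh-LDB1, so neither ratio overlapped between the groups. These ratios do not depend on the scaling of a library. Levels of 84.6% of single genes tested did not overlap either, and the share among ratios of other gene pairs was not computed.

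**Figure D3:**
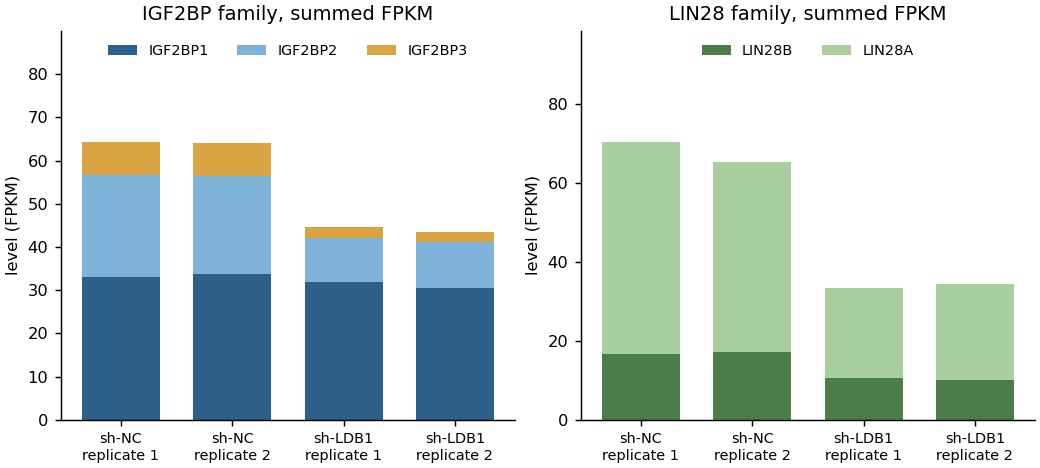
Stacked bars of the level (FPKM, axis from 0) in each of the 4 libraries, for IGF2BP1, IGF2BP2 and IGF2BP3 on the left and LIN28B and LIN28A on the right. The IGF2BP1 segment is of similar height in all libraries while IGF2BP2 and IGF2BP3 are shorter in sh-LDB1, and both LIN28 segments are shorter in sh-LDB1.

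Ordered by mean FPKM, sh-NC held IGF2BP1 (33.4), IGF2BP2 (23.1), LIN28B (16.9), ZBTB7A (8.11), IGF2BP3 (7.61), SOX6 (0.758) and BCL11A (0). Of these neighbours, ZBTB7A and IGF2BP3 differed by less than the SD of ZBTB7A. In sh-LDB1 the order was IGF2BP1 (31.2), ZBTB7A (12.1), IGF2BP2 (10.4), LIN28B (10.2), IGF2BP3 (2.49), SOX6 (0.878) and BCL11A (0.0039), and the libraries of IGF2BP2 and LIN28B overlapped. ZBTB7A moved from below LIN28B to above it: the ratio of ZBTB7A to LIN28B was 0.463 and 0.497 in the controls against 1.14 and 1.23 with sh-LDB1. In sh-NC, IGF2BP1 exceeded 94.8% of all genes in the table and LIN28B 89.3%. IGF2BP3 went from the 79.3rd to the 65.2nd percentile of level and ZBTB7A from the 80.2nd to the 86.4th.

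The globin genes are the readout that these regulators are known for. Of 10 globin genes, 8 were tested, all 8 fell and 7 fell more than 2-fold, with a median log2 fold change of -2.65. Among all genes tested, 37.4% fell and 10.3% fell more than 2-fold. The fetal gamma globin HBG1 was 194.8 and 194.1 FPKM in the controls and 33.3 and 21.5 FPKM with sh-LDB1 (log2 fold change -2.82, SE 0.208, limma adjusted p = 0.000513). HBG2, its near-identical copy, was 43.8 and 67.0 FPKM in the controls and 9.48 and 8.37 FPKM with sh-LDB1 (log2 fold change -2.48, SE 0.214, limma adjusted p = 0.000789). Reads that fit both copies may have been split by the counting, which leaves the level of each uncertain, as it does for HBA1 and HBA2.

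The embryonic and adult beta-like chains were low in both groups. HBE1 was 1.35 and 1.34 FPKM in the controls and 0.455 and 0.757 FPKM with sh-LDB1, on 7 to 21 recovered reads per library. HBB was 0.379 and 0.364 FPKM in the controls and 0.239 and 0.152 FPKM with sh-LDB1, on 3 to 8 recovered reads. Both were under the filter, and neither passed when it was dropped (limma adjusted p = 0.0676 and 0.125). HBG1 and HBG2 together took 96.0% ± 0.368 (SD, n = 2) of the summed beta-like level in sh-NC and 85.0% ± 3.83 (SD, n = 2) in sh-LDB1. The share of HBB was 0.143% and 0.455%, and that of HBD was 3.36% ± 0.423 and 13.1% ± 3.06 (SD, n = 2 each), while the level of HBD fell from 8.79 to 5.41 FPKM (log2 fold change -0.60, limma adjusted p = 0.0146).

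On the alpha side, the embryonic zeta globin HBZ fell from 1572 ± 40.3 to 60.1 ± 1.7 FPKM, HBA2 from 989.7 ± 64 to 106.6 ± 1.51 FPKM and HBQ1 from 88.8 ± 6.71 to 19.3 ± 0.490 FPKM (SD, n = 2 each). Their limma adjusted p-values were 6.8e-05, 6.8e-05 and 9.6e-05. Of the 10 globin genes, 6 are also among the erythroid markers, so both lists rest in part on the same genes.

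Other regulators of fetal hemoglobin were mostly lower. Of 36 genes listed, 35 were tested, 23 fell, 4 rose and 8 did not pass, with a median log2 fold change of -0.42 beside -0.08 over all genes. Among all genes tested, 37.4% were lower and 29.9% higher. KLF1, the erythroid factor that activates HBB, BCL11A and ZBTB7A, fell from 237.5 ± 0.214 to 28.6 ± 0.507 FPKM (log2 fold change -3.01, SD of n = 2 each, limma adjusted p = 6.8e-05). GATA1, the master erythroid factor, fell from 224.4 ± 3.22 to 62.2 ± 1.6 FPKM (log2 fold change -1.83, limma adjusted p = 7e-05). MYB, a progenitor factor linked to fetal hemoglobin by common variation, fell from 24.9 ± 0.594 to 3.24 ± 0.241 FPKM (log2 fold change -2.61, limma adjusted p = 7.5e-05).

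The 4 that rose stayed under 2-fold. GATAD2B, a subunit of the NuRD corepressor that BCL11A and ZBTB7A recruit, had a log2 fold change of 0.46, RCOR1 (CoREST) of 0.43 and NFIX of 0.45. The other NuRD genes examined here fell. Their log2 fold change was -1.23 for RBBP4, -1.16 for RBBP7, -0.62 for MTA1, -0.58 for HDAC1 and -0.49 for MBD3. It was -0.47 for MTA3, -0.44 for GATAD2A, -0.38 for HDAC2, -0.31 for MTA2, -0.29 for CHD4 and -0.28 for MBD2. With equal summed FPKM 7 of the other fetal hemoglobin regulators were higher, as with median-of-ratios scaling, and 8 were higher with voom. In the same order, 4876, 4498 and 4882 of all genes were higher, instead of 3983.

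Of the 16 genes of let-7 processing and action, all tested, 8 fell and 6 rose, beside 37.4% lower and 29.9% higher among all genes. Both shares lay above the background in a list of 16 genes, and this difference was not tested. The median log2 fold change was -0.14, beside -0.08 over all genes. AGO2, the cleaving Argonaute, fell from 16.9 ± 0.123 to 6.11 ± 0.0861 FPKM (log2 fold change -1.33, limma adjusted p = 0.000116). XPO5, which exports precursors from the nucleus, had a log2 fold change of -1.29 and DROSHA, which cuts the primary transcript, of -1.18. The GW182 protein gene TNRC6A rose from 5.50 ± 0.131 to 8.31 ± 0.0753 FPKM (log2 fold change 0.52, limma adjusted p = 0.00142), and AGO3 and the uridylyl transferase gene TUT7 had values of 0.43 and 0.32.

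DIS3L2 is the exonuclease that degrades let-7 precursors after a uridylyl transferase has tailed them. Its level was 2.03 and 2.00 FPKM in the controls and 1.86 and 2.03 FPKM with sh-LDB1 (log2 fold change -0.04, SE 0.0968, limma adjusted p = 0.76). The numbers of let-7 processing genes that rose and that fell were smaller when any 1 library was left out, as were those over all genes. Of 8 host genes of let-7 microRNAs, 3 had a row and 1 was tested. HUWE1 was at 24.1 to 25.6 FPKM and did not pass (limma adjusted p = 0.482), while MIRLET7BHG was at 0.14 and 0.0829 FPKM in the controls and 0.0218 and 0.0346 FPKM with sh-LDB1.

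Of 40 genes listed as let-7 targets, other than the members, 37 had a row and 30 were tested. Of these, 14 fell and 10 rose, beside 37.4% lower and 29.9% higher among all genes tested. The difference from these shares was not tested, and the median log2 fold change was -0.12, beside -0.08 over all genes. MYC was 159 and 161 FPKM in the controls and 27.3 and 28.1 FPKM with sh-LDB1 (log2 fold change -2.49, SE 0.0398, limma adjusted p = 6.8e-05). The cell cycle genes CDC25A, at -2.38, and CCND1, at -1.47, were the next lowest by adjusted p. HMGA1, the paralog of HMGA2 and an architectural DNA-binding protein, fell from 1151 ± 4.17 to 652 ± 10.9 FPKM (log2 fold change -0.82, SD of n = 2 each, limma adjusted p = 0.000243).

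Among the targets that rose, the insulin receptor substrate gene IRS2 went from 2.61 ± 0.0757 to 6.85 ± 0.321 FPKM (log2 fold change 1.12). The interleukin receptor gene IL6R went from 0.211 and 0.137 FPKM in the controls to 3.05 and 3.17 FPKM with sh-LDB1 (log2 fold change 1.81). Of the genes named here, MYC, CCND1 and IL6R held 0 matches to CTACCTC in the canonical 3' region searched, CDC25A held 2, and IRS2 and HMGA1 held 1 each. The number of let-7 targets that rose was smaller when any 1 library was left out, as was that over all genes.

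**Figure D4:**
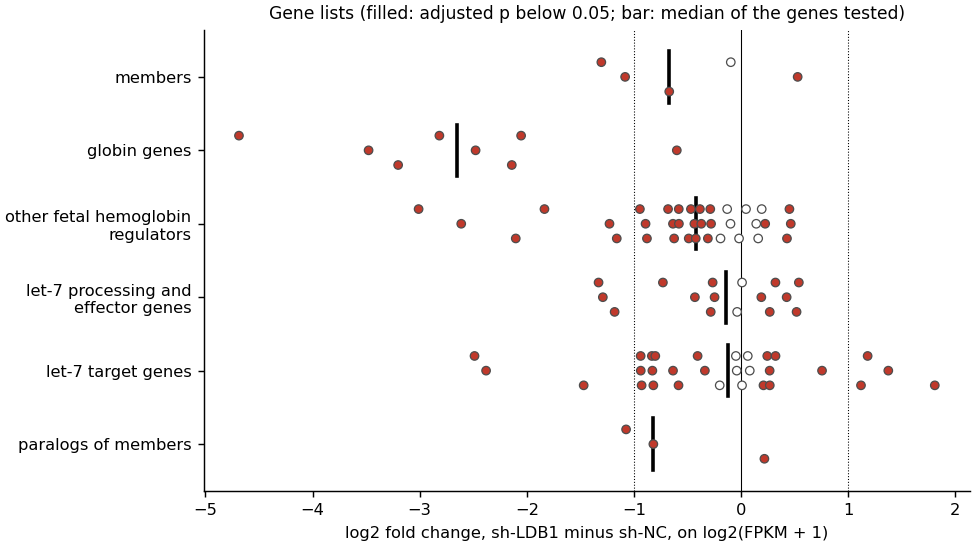
Each point is a tested gene, placed by its log2 fold change (sh-LDB1 minus sh-NC, on log2(FPKM + 1)), in rows for the members and 5 related lists; filled points passed an adjusted p of 0.05 and black bars are medians. The globin genes lie furthest to the left with a median of -2.65, while the let-7 processing genes and let-7 targets lie on both sides of 0 with medians of -0.14 and -0.12.

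To place the members' let-7 matches among other genes, all tested genes with an annotated 3' region were divided by the presence of CTACCTC. The median log2 fold change was -0.07 in 1061 genes with at least 1 match and -0.08 in 9026 genes without. Of those with a match, 41.0% were lower and 31.3% were higher, against 41.5% and 33.2% without. Genes with at least 2 matches, to which LIN28B and IGF2BP1 belong, numbered 126 and had a median of -0.02. These values are given as a description, since genes with a match also had longer 3' regions (a median of 2904 bases against 1089).

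Paralogs of the other members were compared as well, beside 37.4% lower and 29.9% higher among all genes tested. Of 7 listed, 4 had a row and 3 were tested: LIN28A and HMGA1 fell, as given above, and ZBTB7B, the T cell factor ThPOK, rose from 20.8 ± 0.645 to 24.3 ± 0.737 FPKM (log2 fold change 0.22, SD of n = 2 each, limma adjusted p = 0.0167). This call was lost without sh-NC replicate 2 and without either sh-LDB1 replicate. SOX5, the partner of SOX6 in cartilage, was 0.568 and 0.506 FPKM in the controls and 0.191 and 0.304 FPKM with sh-LDB1 and was under the filter.

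The calls of the 4 changed members held under every alternative run. Over 12 alternatives the log2 fold change ranged from -1.61 to -1.17 for IGF2BP3, from -1.15 to -0.92 for IGF2BP2, from -0.72 to -0.51 for LIN28B and from 0.47 to 0.72 for ZBTB7A. The largest limma adjusted p among them was 0.0046, 0.0045, 0.00851 and 0.0235, respectively. The low end for IGF2BP3 came with a pseudocount of 0.01, since adding 1 FPKM understates the change of a low gene. Scaling to equal summed FPKM moved the median of all genes by 0.147 on the log2 scale and voom by 0.129. Among genes past 2-fold, 52% were lower as reported, against 38.5% with equal summed FPKM and 41.4% with voom.

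**Figure D5:**
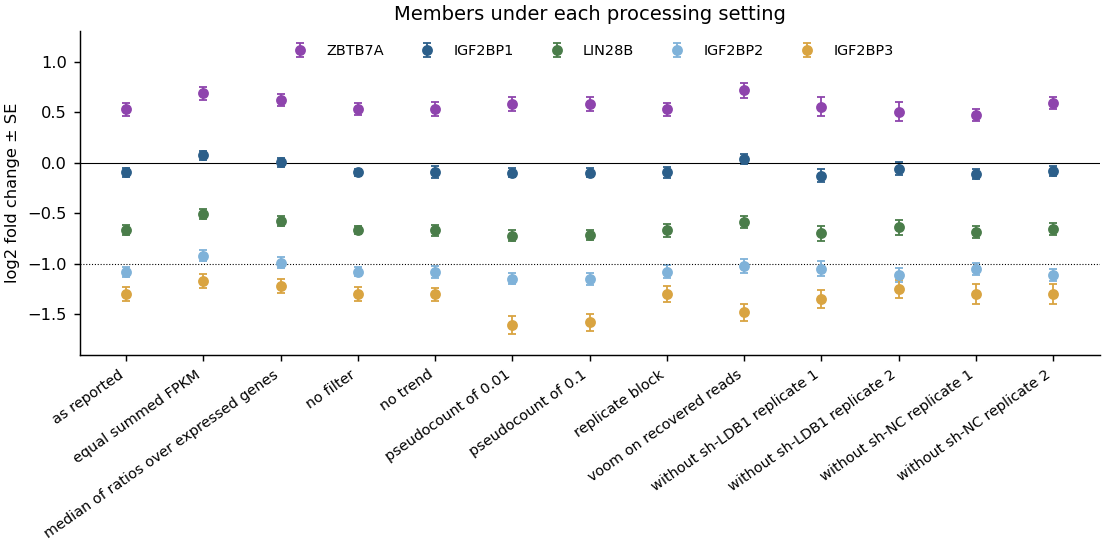
Log2 fold change (sh-LDB1 minus sh-NC) of the 5 tested members, with the standard error as bars, as reported and under 12 alternative settings; the dotted line marks 2-fold lower. IGF2BP3, IGF2BP2 and LIN28B stay below 0 and ZBTB7A above 0 in every setting, IGF2BP1 crosses 0, and IGF2BP2 crosses the dotted line in 2 settings.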

How the data were processed

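Libraries were prepared from total RNA (Illumina TruSeq), and the authors mapped the reads (HISAT2 2.0.5 and hg38 per the submitters' processing notes) and deposited 1 table of FPKM per gene and library. The counting tool, gene annotation and use of strand are not given in the sources used here. The deposited values had been scaled by median of ratios: over the 19789 genes above 0 in all libraries, the median ratio to the geometric mean was 1.0083 in each. Reads were recovered as whole multiples of the smallest FPKM step with GENCODE 44 lengths, and 80.92% of the lower values of single-transcript genes came out whole (tolerance 0.002 reads plus 2e-06 of the reads). Their absolute number rests on the annotated length. Replicate pairs differed by more than sampling noise (chi-square per gene 4.72 in sh-NC and 2.34 in sh-LDB1).

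The 13300 genes averaging 1 FPKM or more were tested as log2(FPKM + 1) with limma 3.58.1 in R 4.3.3 (eBayes with trend, no replicate block) and Benjamini-Hochberg adjustment over all of them. Because of the added 1, fold changes of low genes come out too small. Steps were tested on simulated data. The other steps used Python 3.11.15 with pandas 2.3.3.

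The members and lists (globins, other fetal hemoglobin regulators, let-7 processing, let-7 targets, let-7 hosts, paralogs, antisense transcripts and markers of erythroid, promyelocytic, B and megakaryocytic cells) were chosen with earlier results of these data known. GATA1, KLF1 and 6 globin genes are on both the erythroid marker list and another list, and HMGA1 is on 2 lists. Named from each list were genes linked to the members and the 3 of smallest adjusted p in each direction, apart from some genes that are not reported here. HBD, MIRLET7BHG, CD79A, SOX5 and the NuRD genes that fell were named after their values were seen. The same holds for LYZ, CSF3R, PRTN3, AZU1, CD33 and CEBPE. Table columns of no sample numbered 0.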

Additional observations from a re-analysis of the deposited data

How the results depend on the processing

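The direction and the call of LDB1, IGF2BP2, IGF2BP3, LIN28B and ZBTB7A held in all 12 alternatives. IGF2BP1 was reversed to 0.072 with equal summed FPKM, 0.0019 with median-of-ratios scaling over expressed genes and 0.037 with voom on recovered reads, and passed the test in none. Members more than 2-fold lower numbered 1 instead of 2 with equal summed FPKM and 1 with median-of-ratios scaling, as IGF2BP2 fell short of 2-fold. All genes more than 2-fold higher numbered 2103 with voom and 1731 with a pseudocount of 0.01, instead of 1264. All genes more than 2-fold lower numbered 1921 with a pseudocount of 0.01 and 1001 with equal summed FPKM, instead of 1371. The other fetal hemoglobin regulators that were higher numbered 7 with equal summed FPKM, 7 with median-of-ratios scaling and 8 with voom, instead of 4. In the same order, 4876, 4498 and 4882 of all genes were higher, instead of 3983. The let-7 processing genes that were lower numbered 5 instead of 8 with equal summed FPKM, with median-of-ratios scaling and without the filter, and the let-7 targets that were higher numbered 6 instead of 10 without the filter. Of all genes, 4047 were lower with equal summed FPKM and 4427 with median-of-ratios scaling, instead of 4978. Without the filter, 34.4% of 28412 genes passed in either direction, against 67.4% as reported. Leaving out each library gave 2 to 5 higher and 5 to 6 lower let-7 processing genes, 5 to 7 higher let-7 targets and 0 to 1 higher paralogs. The counts over all genes were also smaller in each of these runs than as reported. With 1 library left in a group, it is assumed to vary like the other group. The causes of these differences were not tested. With the replicate number as a block, 1 member was higher and 3 were lower, as reported. The numbers did not pair the libraries: deviations of same-numbered libraries correlated at 0.0196, with only 2 pairs. Depth limits BCL11A, HBB and HBE1, which rest on 0 to 21 reads per library.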

Other observations

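H19, a noncoding RNA that binds let-7 and that was kept on the let-7 target list, was counted among the genes that rose, and its level rested on unequal replicates. It was 0.064 and 0.0468 FPKM in sh-NC, on 3 and 2 recovered reads, and 3.17 and 0.798 FPKM in sh-LDB1, on 147 and 35 recovered reads (log2 fold change 1.38, SE 0.437, limma adjusted p = 0.0455). H19 passed the filter on low values only through its level in sh-LDB1. The call was lost when this filter was dropped (limma adjusted p = 0.106). Both sh-LDB1 libraries were above both controls, but they differed from each other by more than the difference of the lower of them from the controls. ARID3A, a factor of fetal B cell development and a let-7 target with 2 matches to CTACCTC, rose from 29.1 ± 2.22 to 49.7 ± 0.988 FPKM (SD, n = 2 each), a log2 fold change of 0.76 (limma adjusted p = 0.000777). DLK1, an imprinted growth regulator of fetal tissue on the same list, fell from 49.8 ± 0.713 to 27.6 ± 0.141 FPKM (SD, n = 2 each), a log2 fold change of -0.83 (limma adjusted p = 0.000181). H19, ARID3A and DLK1 were chosen after their values were seen.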
